A study of Mus musculus with 7 samples.

Results

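The genes examined here are 40 components of the sarcomere and of the contraction machinery of striated muscle, followed at the level of open chromatin in muscle stem cells (MuSCs). They were chosen by name and not by any measured value, though with earlier results of these data known. Of them, 14 belong to the thin filament, 6 to the thick filament, 3 to titin and the M-band, 10 to the Z-disc and its linkage, and 7 to calcium handling and energy supply. All 40 are among the 21440 protein-coding genes for which at least 1 transcription start could be placed on the mouse build mm10.

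ATAC-seq, in which the Tn5 transposase cuts accessible DNA, was performed on 5000 freshly sorted hindlimb MuSCs per library from male mice of 5 to 6 weeks, with 4 Nedd4L-cKO and 3 Nedd4L-WT libraries. In Nedd4L-cKO mice, exon 15 of the ubiquitin ligase gene Nedd4L, which encodes part of its catalytic domain, is flanked by loxP sites and removed by a Cre expressed from the Pax7 locus. That Cre is active from development onward, so that fibers formed from these cells also carry the deletion, and the deleted allele is still transcribed. Whether Nedd4L-WT animals carry the Cre was not given in the sources used here. The study counts as many mice as libraries in each group, but the labels do not name the animals, and p-values measure the spread between these 7 libraries. The peak caller kept 14429374 to 20084685 tags per library and listed 69302 to 79158 broad peaks per library on the autosomes, X and Y. Nedd4L-WT replicate 3 came from lane 2 and all others from lane 1. All 12 MuSC markers, Pax7 and Myod1 included, had a promoter peak in all 7 libraries, whereas the pluripotency gene Pou5f1 had none. Of the markers of other cells, a promoter peak was present in all 7 libraries for none of 6 immune genes, none of 6 cardiac genes, 2 of 6 endothelial genes, 2 of 6 fibro-adipogenic genes and 5 of 6 smooth muscle and pericyte genes.

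Skeletal muscle contracts when thin filaments of actin, tropomyosin and troponin slide along thick filaments of myosin. The Z-disc anchors the thin filaments, the M-band crosslinks the thick ones, and titin spans the distance between them, while calcium released through the ryanodine receptor and pumped back by SERCA switches contraction on and off. Quiescent MuSCs do not assemble sarcomeres; these genes are activated during differentiation into fibers, in large part by myogenic factors that bind E-boxes, by MEF2 and by serum response factor at CArG boxes.

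A promoter was taken as open when a peak overlapped any annotated start within 1 kb on either side. By that measure 21 of the 40 genes had a promoter peak in all 7 libraries (52.5%, beside 63.4% of all 21440 promoters), 9 had one in 1 to 6 libraries (22.5%, beside 5.26%), and 10 had none in any library (25%, beside 31.3%). With this window, the genes of the contraction machinery thus fell into the intermediate class at a higher share than promoters as a whole. This is a description without a test. Within 500 bp that class held 11 of the 40 genes (27.5%, beside 5.27% of all promoters). Within 2.5 kb it held 2 (5%, beside 5.43%), so that the higher share depended on the window. A missing peak means that no region that passed the caller's threshold in that library reached within 1 kb of a start. A called peak may still lie farther away. In bulk chromatin, fewer cells with an open site and less opening per cell cannot be told apart.

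**Figure D1:**
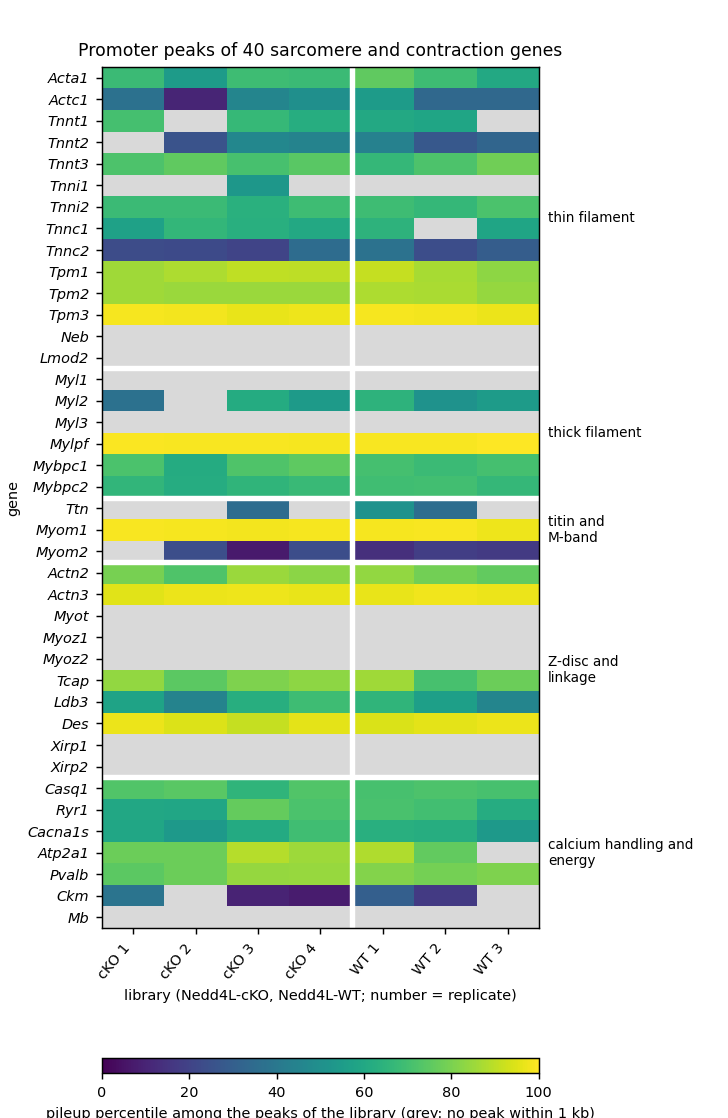
Pileup percentile of the promoter peak of each of the 40 genes (rows, by role) in each of the 7 libraries (columns), where 0 is the lowest and 100 the highest pileup among all peaks of that library and grey marks no peak within 1 kb. In all, 21 rows are filled throughout, 9 in part and 10 not at all, and the bright rows (Tpm3, Mylpf, Myom1, Actn3 and Des) are as bright in Nedd4L-cKO as in Nedd4L-WT.

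Of the 14 thin filament genes, 8 had a peak in all 7 libraries: the skeletal and cardiac alpha-actins Acta1 and Actc1, the fast troponins Tnnt3, Tnni2 and Tnnc2, and the tropomyosins Tpm1, Tpm2 and Tpm3. The slow and cardiac troponins Tnnt1, Tnnt2, Tnni1 and Tnnc1 had one in some libraries, and nebulin (Neb), the thin filament ruler, and leiomodin 2 (Lmod2), an actin nucleator, had none. In the thick filament, the fast regulatory light chain Mylpf and the myosin binding proteins Mybpc1 and Mybpc2 were called throughout, the slow regulatory light chain Myl2 in 6 libraries, and the essential light chains Myl1 and Myl3 in none. Among titin and the M-band, Myom1 was called in all 7 libraries, Myom2 in 6 and titin (Ttn) in 3. Of the 10 Z-disc and linkage genes, the alpha-actinins Actn2 and Actn3, telethonin (Tcap), Ldb3 and desmin (Des) were called in all 7 libraries, and Myot, Myoz1, Myoz2, Xirp1 and Xirp2 in none. For calcium handling and energy, calsequestrin 1 (Casq1), the ryanodine receptor Ryr1, its voltage sensor Cacna1s and the calcium buffer parvalbumin (Pvalb) were called in all libraries, the calcium pump Atp2a1 in 6, muscle creatine kinase (Ckm) in 5 and myoglobin (Mb) in none.

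By fiber type, 8 of 11 genes with fast isoforms and 2 of 8 with slow isoforms (Mybpc1 and Tpm3) had a promoter peak in all 7 libraries, beside 63.4% of all promoters. Each class had 2 genes with none in any library, beside 31.3% of all promoters. The fast genes without a peak were Myl1 and Myoz1, and the slow ones Myl3 and Myoz2. Within 2.5 kb, the slow genes Tnnt1, Tnni1, Tnnc1 and Myl2 also had a peak in all 7 libraries. So did the fast gene Atp2a1, and the contrast between the classes thus depended on the window. A start lay under a peak in every library at 3 of the fast genes (Mylpf, Actn3 and Pvalb) and at 2 of the slow genes (Mybpc1 and Tpm3). The peaks at Mylpf and Actn3 also covered the start of a neighboring gene, Tbc1d10b and Zdhhc24. The other annotated start of Mylpf had no peak within 1 kb in any library. At Pvalb the internal start (position 78204237) was covered, and the outer start (78206400) was covered in no library. At Tpm3 the covered start was the internal one of short cytoskeletal isoforms. The outer start of Tpm3, used by the slow muscle isoform, had a peak within 1 kb in 1 library. These counts are a description, with no test.

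The share of the 40 promoters with a peak was 65%, 62.5%, 75% and 70% in the 4 Nedd4L-cKO libraries and 72.5%, 70% and 62.5% in the 3 Nedd4L-WT libraries. The groups overlapped, with means of 68.1% ± 5.54 (SD, n = 4) and 68.3% ± 5.20 (SD, n = 3). Over all promoters the share stayed between 65.4% and 67.1%. The 3 libraries with 14429374 to 15084838 tags had 25 to 26 of the 40 promoters called, and the 4 libraries with 17121492 to 20084685 tags had 28 to 30. Within 1 kb, depth was thus lower where fewer of these promoters were called, and its part in the result was not tested. Within 2.5 kb, 30 to 31 of the 40 were called per library. Under a stricter call (-log10 q of at least 5), the counts overlapped. They were 19, 13 and 16 in the 3 libraries with fewest tags and 18, 19, 20 and 17 in the 4 others.

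The position of the peaks set these promoters apart from promoters as a whole. Where the peak had to cover the annotated start itself, 30% to 45% of the 40 genes had one per library, against 60.5% to 62.3% of all promoters. Within 500 bp the ranges were 47.5% to 57.5% against 63.8% to 65.5%. Within 2.5 kb the order turned, with 75% to 77.5% of the 40 genes against 68.3% to 70.1% of all promoters. Among promoters with a peak within 1 kb in all 7 libraries, the start was covered in all 7 for 11 of 21 sarcomere and contraction genes (52.4%) and for 12427 of 13594 promoters overall (91.4%). A stricter call, with a -log10 q of at least 5, left 32.5% to 50% of the 40 genes against 56% to 59.4% of all promoters. The start of the widely expressed beta-actin gene (Actb), with a promoter peak in all 7 libraries, was covered in none of them. For 9 of the 40 genes (Tnnt3, Tnni2, Tcap, Myom2, Actn3, Neb, Myoz1, Xirp1 and Myot) the only start used was the outer end of the RefSeq gene span, so that distances at these genes are distances from that end.

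**Figure D2:**
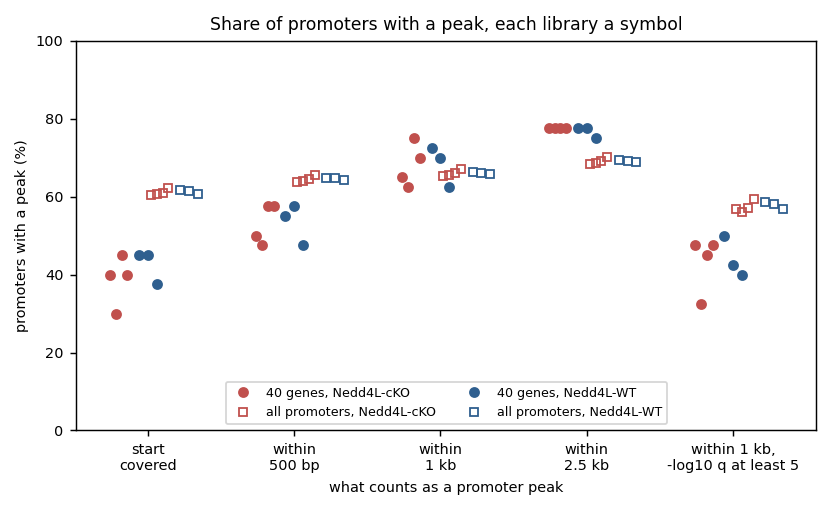
Percent of promoters with a peak (vertical axis) under 5 definitions of a promoter peak (horizontal axis), with filled circles for the 40 genes and open squares for all 21440 promoters, and 1 symbol for each of the 4 Nedd4L-cKO and 3 Nedd4L-WT libraries. The filled circles lie below the squares where the start must be covered (30% to 45% against 60.5% to 62.3%) and above them within 2.5 kb (75% to 77.5% against 68.3% to 70.1%), and the colors overlap in each definition for the 40 genes.

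Where the highest peak missed the start, its place was steady between libraries at some genes and varied at others. At Tnnt3 the highest promoter peak ended 695 to 722 bp upstream of the start in all 7 libraries, and at Tnni2, the next troponin gene on chromosome 7, it ended 43 to 624 bp upstream. At Tnnt1 it began 922 bp downstream of the start in Nedd4L-cKO replicate 1 and ended upstream of it in the 4 other libraries that had it, and at Cacna1s it ran from covering the start to lying 919 bp upstream. The Cacna1s peak covered the start of Ascl5, 2002 bp from the outer Cacna1s start, in all 7 libraries, and a start of Cacna1s in 2. At Casq1 it ended 286 to 498 bp upstream, and at Atp2a1 923 to 965 bp upstream in the 6 libraries that had it. Downstream of the start lay the peaks of Tnnc2, from 338 to 611 bp, of Tcap, from 330 to 629 bp, and, in the 6 libraries that had it, of Myom2, from 735 to 991 bp. Atp2a1 and Myom2 therefore sat just inside the window of 1 kb, and Lmod2 just outside it, with a peak whose near edge lay 1324 bp into the gene. That Lmod2 peak stood at percentiles 88.9, 88.2, 94.2 and 92.3 in Nedd4L-cKO and 92.9, 89.5 and 88.6 in Nedd4L-WT. It was high in all 7 libraries, and the groups overlapped. In the window of 2.5 kb, Tnni1, which had a peak in 1 library within 1 kb, had one in all 7 at percentiles 74.4 to 81.1, and Ttn, with 3 libraries within 1 kb, had one in all 7 at 45.0 to 66.3. Neb, Myl1, Myl3, Myot, Myoz1, Myoz2, Xirp1 and Mb still had none.

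**Figure D3:**
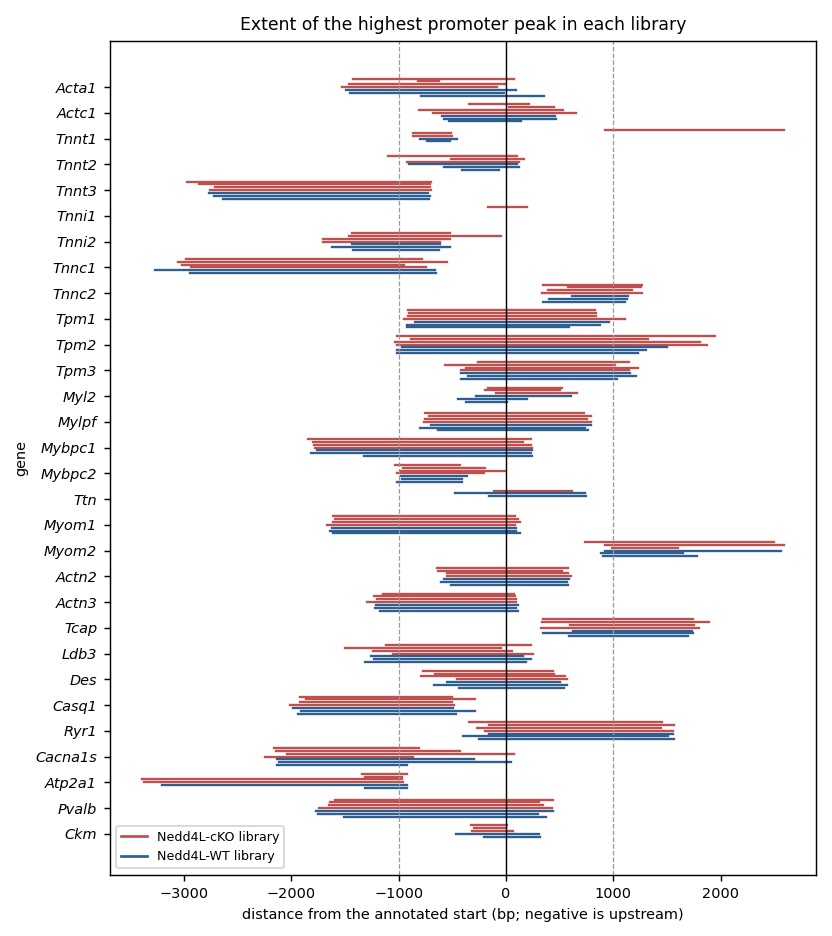
Extent of the highest peak near the start of each of the 30 genes that had one, drawn as 1 line per library from its upstream to its downstream end, with the distance from the nearest annotated start in bp on the horizontal axis, red for Nedd4L-cKO and blue for Nedd4L-WT, and dashed lines at 1 kb. The lines of Tnnt3 end 695 to 722 bp upstream of the start and those of Tcap begin 330 to 629 bp downstream of it, while those of Tpm1, Tpm2, Tpm3, Des and Ryr1 cross it in all 7 libraries.

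The 6 genes with the highest median percentile of promoter pileup were Mylpf, Myom1, Tpm3, Actn3, Des and Tpm1. At Mylpf the percentiles were 99.3, 99.2, 98.9 and 98.8 in Nedd4L-cKO and 98.8, 99.1 and 99.6 in Nedd4L-WT. This peak also covered the start of Tbc1d10b, which lies 380 bp from the outer start of Mylpf, and no library had a peak within 1 kb of the other annotated start of Mylpf at chromosome 7, position 127211608. At Myom1 the percentiles were 98.9, 98.8, 98.2 and 98.7 against 98.8, 99.0 and 97.6. Here too the start of another gene, the broadly expressed myosin light chain Myl12a, lay 799 bp away, and at the second Myom1 start, chromosome 17, position 71019557, only 4 libraries had a peak, at percentiles 1.2 to 11.3. At Actn3, 759 bp from the start of Zdhhc24, they were 95.4, 97.1, 97.3 and 96.7 against 96.6, 97.9 and 97.0. Thus 3 of the 6 highest values rest on peaks near the start of a neighboring gene. Leaving out peaks that cover a start of another gene, 17 of the 40 genes (42.5%) and 52.4% of all promoters kept a peak in all 7 libraries.

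Tpm3, which encodes both the slow muscle tropomyosin and short cytoskeletal tropomyosins, has 2 annotated starts that differed. At the internal start (chromosome 3, position 90079521), where the short cytoskeletal isoforms begin, percentiles were 98.7, 98.1, 96.8 and 97.5 in Nedd4L-cKO and 98.6, 98.1 and 97.2 in Nedd4L-WT. At the outer start (position 90072651), from which the long isoforms including that of slow muscle begin, 1 of 7 libraries had a peak within 1 kb. The high value of Tpm3 thus belongs to the internal start, and the groups overlapped there. Des, the intermediate filament protein of muscle, had percentiles of 97.2, 94.7, 91.2 and 95.8 against 94.4, 95.7 and 96.9, with no start of another gene in the peak, and Tpm1 had 85.7, 87.9, 90.4 and 90.2 against 91.2, 87.0 and 83.2. By fold enrichment over local background in place of pileup, the Des peak stood lower, at percentiles 18.7 to 41.9. The same held for the 40 genes together: with promoters without a peak placed below all others, their median stood at percentile 49.4 to 65.0 by pileup (69.2 to 73.7 for all promoters) and at 20.4 to 34.2 by fold (49.8 to 54.1 for all promoters).

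The sequence just upstream of 6 starts is printed here to set promoters with a peak in all 7 libraries beside promoters with few or none. Each run holds the 250 bases before the annotated start on the gene's strand, 5′ to 3′, from RefSeq on GRCm38.p6, with capitals for every match to an E-box (CANNTG), a TATA box (TATAAA), a MEF2 site or a CArG box, searched on both strands; positions count back from -1 at the base before the start, and no printed match overlaps another. The regions are chr3:90079271-90079520 (plus strand, peak in 7 libraries) and chr3:90072401-90072650 (plus strand, peak in 1 library) for Tpm3, chr1:75360042-75360291 (plus strand, 7 libraries) for Des, chr8:123894776-123895025 (minus strand, 7 libraries) for Acta1, chr3:123034988-123035237 (minus strand, no library) for Myoz2 and chr1:66945057-66945306 (minus strand, no library) for Myl1.
Tpm3, internal start: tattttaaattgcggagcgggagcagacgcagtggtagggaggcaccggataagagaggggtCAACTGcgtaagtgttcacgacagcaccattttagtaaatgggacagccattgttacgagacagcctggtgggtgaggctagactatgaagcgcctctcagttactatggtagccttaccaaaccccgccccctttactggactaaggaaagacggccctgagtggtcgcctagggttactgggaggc
Tpm3, outer start: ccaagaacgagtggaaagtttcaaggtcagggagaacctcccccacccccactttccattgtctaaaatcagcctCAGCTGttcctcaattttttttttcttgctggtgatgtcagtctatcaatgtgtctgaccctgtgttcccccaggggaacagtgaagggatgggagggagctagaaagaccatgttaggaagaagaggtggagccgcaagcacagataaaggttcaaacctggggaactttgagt
Des: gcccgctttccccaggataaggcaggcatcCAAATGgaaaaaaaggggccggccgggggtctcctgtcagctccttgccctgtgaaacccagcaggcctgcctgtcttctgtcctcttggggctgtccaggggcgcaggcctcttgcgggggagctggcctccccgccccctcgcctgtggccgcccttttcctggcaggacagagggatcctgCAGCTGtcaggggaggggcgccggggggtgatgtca
Acta1: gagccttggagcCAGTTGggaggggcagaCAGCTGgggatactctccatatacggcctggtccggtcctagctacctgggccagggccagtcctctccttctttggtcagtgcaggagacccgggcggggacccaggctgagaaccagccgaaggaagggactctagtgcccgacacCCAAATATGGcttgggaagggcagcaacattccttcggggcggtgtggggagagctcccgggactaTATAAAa
Myoz2: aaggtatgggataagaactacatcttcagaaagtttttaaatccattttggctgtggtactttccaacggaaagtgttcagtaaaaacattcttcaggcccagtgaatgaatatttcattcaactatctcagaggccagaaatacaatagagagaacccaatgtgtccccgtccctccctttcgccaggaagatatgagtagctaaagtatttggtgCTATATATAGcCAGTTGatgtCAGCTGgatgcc
Myl1: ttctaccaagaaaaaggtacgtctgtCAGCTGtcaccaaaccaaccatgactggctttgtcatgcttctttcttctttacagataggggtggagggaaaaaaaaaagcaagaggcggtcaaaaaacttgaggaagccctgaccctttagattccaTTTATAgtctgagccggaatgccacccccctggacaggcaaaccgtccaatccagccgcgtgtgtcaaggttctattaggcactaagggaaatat

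Over the 300 bases that RefSeq lists around each start, the internal Tpm3 start held 15 CpG dinucleotides, 0.65 of the number its base composition gives, and the outer start held 3, or 0.15. Des has the E-box CAGCTG at -36 to -31, and Acta1 has a CArG box at -73 to -64 with the E-box CAGCTG at -221 to -216. The peak covered the Acta1 start in 3 libraries. In Nedd4L-cKO replicate 2 it ended 620 bp upstream of that start, outside the printed bases. Myoz2 has a MEF2 site at -33 to -24 followed by the E-boxes CAGTTG and CAGCTG, and Myl1 has the E-box CAGCTG at -224 to -219, although neither had a peak. RefSeq sequence was found for 31 of the 40 genes, in 39 windows of 300 bases, some of which overlap. An E-box occurred in 35 of the 39 windows (89.7%, beside 69.0% of 21263 windows of protein-coding genes), TATAAA in 5 (12.8%, beside 12.6%), a MEF2 site in 3 (7.69%, beside 0.489%) and a CArG box in 6 (15.4%, beside 1.52%). The CArG boxes lay at Acta1, Actc1 and Ldb3, which had a promoter peak in all 7 libraries, at the second start of Myom1, with 4 libraries, and at Myl3, with none. The MEF2 sites lay at Ttn, with a peak in 3 libraries, and at Xirp2 and Myoz2, with none. A match describes letters and not a bound site.

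None of the 9 genes with a promoter peak in only some libraries had one throughout one genotype and in none of the other. Tnni1, the slow troponin I, had a peak in Nedd4L-cKO replicate 3 alone, at percentile 53.1. Ttn was called in Nedd4L-cKO replicate 3 at 35.5 and in Nedd4L-WT replicates 1 and 2 at 51.0 and 35.7. Tnnt1, the slow troponin T, was called in Nedd4L-cKO replicates 1, 3 and 4 at 70.7, 66.8 and 62.3. In Nedd4L-WT replicates 1 and 2 it stood at 60.4 and 58.7. These called values did not overlap between the groups, but they come from different peaks. The value of Nedd4L-cKO replicate 1 belongs to a peak downstream of the start, and the others to a peak upstream of it. A peak at the downstream place was found in all 7 libraries, in the others more than 1 kb from the start. There the values were 70.7, 64.5, 70.0 and 77.9 against 72.9, 68.4 and 58.9, and the groups overlapped. The Tnnt1 promoter was not in the fit described next, which took promoters called in all 7 libraries. Ckm was missed in the same pair of libraries as Tnnt1, Nedd4L-cKO replicate 2 and Nedd4L-WT replicate 3, and stood at 38.6, 9.9 and 7.6 against 30.1 and 17.1 in the others. These 2 libraries are among the 3 of lowest depth.

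The remaining 5 were each without a peak within 1 kb in a single library. Tnnt2, the cardiac and embryonic troponin T, was missed in Nedd4L-cKO replicate 1 and stood at 25.7, 46.4 and 44.8 against 44.0, 27.5 and 32.7. Tnnc1, the slow and cardiac troponin C, was missed in Nedd4L-WT replicate 2 and stood at 57.3, 66.3, 63.1 and 60.3 against 64.8 and 58.6, in a peak that covered the start of Nisch. Myl2 was missed in Nedd4L-cKO replicate 2, with 37.5, 61.5 and 54.4 against 64.8, 50.8 and 54.7. Myom2, a second M-band protein, was missed in Nedd4L-cKO replicate 1, with 24.0, 7.1 and 23.8 against 13.6, 18.7 and 16.9. Atp2a1 was missed in Nedd4L-WT replicate 3, with 77.7, 77.7, 89.0 and 85.2 against 88.3 and 76.1. In all 5 the values of the groups overlapped. Within 2.5 kb, the library that missed the gene had a peak at each of the 5. It stood at percentile 18.9 for Tnnt2, 65.0 for Tnnc1, 51.3 for Myl2, 32.3 for Myom2 and 85.9 for Atp2a1. The wider window can take a different peak, but at Myom2 it was the same region as in the other libraries.

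To ask whether loss of Nedd4L moved any of these promoters, the pileup rank of each promoter called in all 7 libraries was turned into a normal score and fitted with limma across 13594 promoters. Of the 40 promoters 21 could be fitted, and no difference was detected among them: 0 of 21 passed an adjusted p of 0.05, beside 0.00% of all promoters in either direction, and 0 of 21 had an unadjusted p under 0.05, beside 3.13% (426) of all promoters. None of the 21 had groups whose percentiles failed to overlap, beside 3.59% of all promoters. Differences ran from -0.126 to 0.118 score units with standard errors of 0.0984 to 0.199, 11 above and 10 below 0, with a median of 0.0082 (0.0016 over all promoters).

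The promoters nearest to a difference were Ldb3 and Tcap on the higher side and Mybpc2 and Actn3 on the lower. Ldb3, a PDZ-LIM protein of the Z-disc, had percentiles of 58.1, 44.8, 62.6 and 68.9 in Nedd4L-cKO and 65.6, 56.5 and 45.5 in Nedd4L-WT, a score difference of 0.102 ± 0.139 (SE). Tcap, which caps titin at the Z-disc, had 83.9, 75.0, 80.6 and 83.1 against 85.6, 71.0 and 77.6, a difference of 0.118 ± 0.166 (SE). Mybpc2, the fast myosin binding protein C, had 65.6, 62.0, 65.5 and 67.7 against 69.4, 69.8 and 66.8, a difference of -0.0944 ± 0.0984 (SE). At Actn3, the fast alpha-actinin described above, the difference was -0.103 ± 0.117 (SE). All 4 had a limma adjusted p of 1.00, and by rank of fold enrichment Tcap and Actn3 took the opposite sign (-0.023 and 0.093). The other promoters called in all 7 libraries had mean percentiles from 25.4 (Tnnc2) to 85.1 (Tpm2) in Nedd4L-cKO and from 30.3 (Tnnc2) to 86.3 (Tpm2) in Nedd4L-WT.

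**Figure D4:**
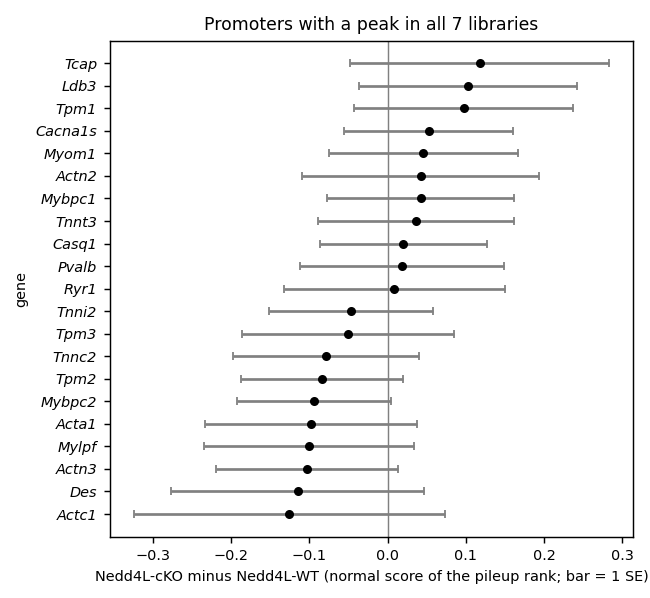
Difference in promoter pileup rank between Nedd4L-cKO and Nedd4L-WT (horizontal axis, normal score units, positive is higher in Nedd4L-cKO) for the 21 genes with a promoter peak in all 7 libraries, with bars of 1 SE from limma. Points run from -0.126 (Actc1) to 0.118 (Tcap), and no adjusted p passed 0.05.

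Inside the gene bodies, the 7 libraries had 85 to 102 peaks that overlapped the spans of the 40 genes, with a mean of 91.8 ± 7.63 (SD, n = 4) for Nedd4L-cKO libraries and of 92 ± 6.08 (SD, n = 3) for Nedd4L-WT libraries. This was 5.33 to 6.39 peaks per 100 kb, against 4.32 to 4.88 over all protein-coding spans, and 4.29% to 5.26% of the bases, against 3.54% to 4.21%. Gene length was not matched in this comparison. Pooled over the genes of each role, the density was lowest in titin and the M-band (2.72 to 3.98 per 100 kb). The 3 genes of that role differed, with means of 0.923 in Ttn, 2.83 in Myom2 and 7.98 in Myom1. The pooled density ran from 4.82 to 7.23 in the thick filament and from 5.75 to 7.40 in the thin filament. In calcium handling and energy it was 6.50 to 8.30 and in the Z-disc genes 7.11 to 8.08, ranges that overlap among these 4 roles. Myom1 held the most peaks, with 9, 9, 10 and 12 in Nedd4L-cKO and 12, 8 and 9 in Nedd4L-WT. Ldb3 followed with 6, 7, 8 and 7 against 7, 7 and 7, and Ryr1 with 5, 6, 5 and 7 against 6, 6 and 6. The groups overlapped at all 3. The longest genes were sparse: Ttn, 278578 bp, had 1 to 5 peaks and Neb, 202159 bp, 2 to 4. This is 0.923 and 1.20 per 100 kb, beside a median of 3.18 over the 2415 protein-coding spans of at least 100 kb. Over the 4 of the 40 genes with spans of that length, the median was 3.00. Myl3, Myoz2, Tnnc1 and Tnni2 had no peak inside their span in any library. Per library, 10% to 12.5% of the 40 genes had no peak inside their span, beside 26.5% to 28.1% of all protein-coding genes.

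**Figure D5:**
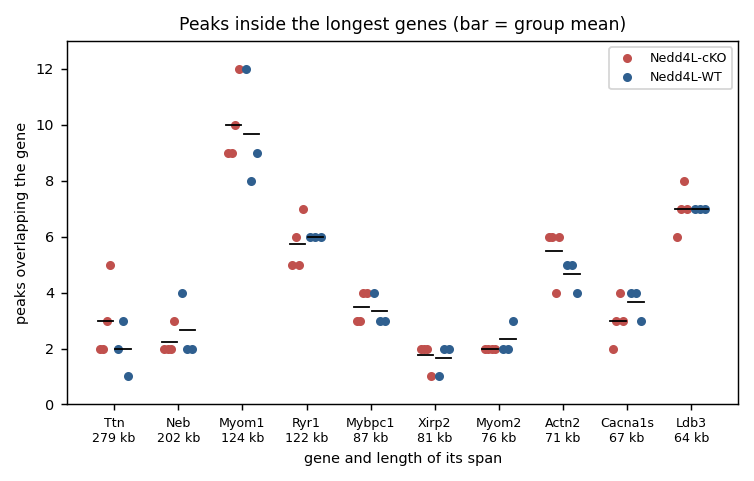
Number of peaks overlapping each of the 10 longest of the 40 genes (vertical axis, peaks per library), ordered by span length in kb, with 1 point per library and a bar at each group mean. Ttn and Neb, the longest, hold 1 to 5 and 2 to 4 peaks, whereas Myom1 holds 8 to 12, and the points of Nedd4L-cKO and Nedd4L-WT overlap at each gene.

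Merged over libraries, 122 regions lay in these spans, 71 of them (58.2%) common to the 7 libraries and 17 (13.9%) found in 1 library, beside 59.5% and 13.6% of 57370 regions in all protein-coding spans. Of the 122, 96 lay more than 1 kb from any start of the gene. Several genes with no promoter peak held such regions in all 7 libraries. Mb, the oxygen store of oxidative fibers, had one at chr15:77036214-77038370, at percentiles 95.7 to 98.4. It lay 12298 bp inside the span from the outer Mb start (position 77050668). The same region lay upstream of the Mb starts at positions 77022787 and 77022727, and the span also holds the start of Apol6. Xirp1, an actin-binding protein of the linkage to the membrane, had regions 2679 and 6209 bp inside the gene with medians of 57.5 and 64.8, and Neb and Myoz1 had regions 2615 and 4394 bp inside the gene with medians of 57.8 and 51.7. Tpm1 had one 4945 bp inside the gene with a median of 95.7, above that of its own promoter peak (87.9).

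No difference between genotypes was detected at the 71 regions in the limma fit over 53245 regions: 0 passed an adjusted p of 0.05 (0.00% of all regions in either direction) and 0 had an unadjusted p under 0.05 (2.71%, 1445, of all regions). The groups failed to overlap at none of them, beside 3.23% of all regions. The lowest unadjusted values fell to an Ldb3 region 46929 bp inside the gene, with percentiles of 54.1, 42.3, 44.5 and 47.0 in Nedd4L-cKO against 36.0, 50.3 and 24.5 (score difference 0.338 ± 0.217, SE), and to a Tnnt1 region 5482 bp inside the gene, with 70.6, 64.7, 63.2 and 65.7 against 59.2, 66.0 and 53.8 (0.188 ± 0.124). On the lower side were a Myom1 region at -6031 bp from its second start, with 54.8, 43.3, 58.0 and 64.5 against 65.0, 60.1 and 64.6 (-0.246 ± 0.139), and a second Ldb3 region, 5248 bp inside the gene, with 58.4, 25.7, 49.5 and 56.5 against 54.2, 56.0 and 66.2 (-0.367 ± 0.251). The groups overlapped at all 4, and each had a limma adjusted p of 1.00. No promoter or region of these genes was called in all libraries of one genotype and in none of the other, beside 0.00933% and 0.0187% of promoters and 0.0694% and 0.0820% of regions (called in Nedd4L-cKO alone and in Nedd4L-WT alone).

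Lists of related genes place these counts. All 12 non-muscle relatives of the contractile proteins, among them the cytoskeletal actins Actb and Actg1, the alpha-actinins Actn1 and Actn4, and vimentin (Vim), had a promoter peak in all 7 libraries, with a median gene at percentile 92.0, and all 12 MuSC markers did, at 88.2. Of the 6 fiber myosin heavy chains, Myh1 (percentiles 78.9 to 86.1) and Myh4 (33.6 to 54.5) had one in all 7 libraries, Myh2 in 6 and Myh8 in 5, and Myh3 and Myh7 in none, with 3 to 4 called per library in either genotype. Of markers of other cells that the sort might hold, 5 of 6 smooth muscle and pericyte genes were called in all 7 libraries (5 per Nedd4L-cKO library and 5 to 6 per Nedd4L-WT library), 2 of 6 fibro-adipogenic genes (2 to 4 and 3), and none of 6 cardiac genes (0 to 2 in each). Among fibro-adipogenic markers, Col1a1 (percentiles 77.3 to 88.8) and Dpt (73.9 to 83.1) were called in all 7 libraries and Pdgfra and Ly6a in none; among endothelial markers, Tek (73.8 to 88.2) and Kdr (19.5 to 55.0) were called in all 7 and Pecam1, Cdh5, Tie1 and Emcn in none; and no immune marker was called in any. No gene of these lists passed an adjusted p of 0.05 in the promoter fit, and 1, an endothelial marker, had an unadjusted p under 0.05. The part of other cells in the peaks of the contraction genes was not tested.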

How the data were processed

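Per the labels, ATAC-seq reads were trimmed with Trimmomatic 0.39, aligned to mm10 with BWA 0.7.17, filtered with SAMtools and freed of duplicates with Picard 2.26.3, and the authors called broad peaks in each library alone with MACS2 2.2.7.1, with no control and no pooling. Per the file headers, tags were shifted by -100 bp and extended to 200 bp, 1 tag per position was kept, and q cutoffs were 0.1 for broad and 0.05 for narrow peaks. Pileup, as deposited, is a signal: tag coverage averaged along a peak and left unscaled for depth. Fold enrichment, as deposited by the authors, is a ratio to local background, and the deposited p-value and q-value are given as -log10. Because pileup moves with depth, only ranks within a library were compared. The depth of 14429374 to 20084685 tags per library limits which weak peaks were called. The 2 other layouts of the same peaks were not used.

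Starts were those of the RefSeq promoter table together with the outer end of each RefSeq span (GRCm38.p6, the assembly of mm10); strands came from that table or, for 3948 genes, 9 of the 40 included, from GENCODE by symbol and chromosome. This placed 21440 of 21887 protein-coding genes. The GRCm39 genome was not used for coordinates. A peak counted with an overlap of at least 1 bp, and the highest pileup was taken. Peaks were merged over libraries into 95163 regions. Scores were fitted with limma 3.58.1 (R 4.3.3), Nedd4L-cKO against Nedd4L-WT, with Benjamini-Hochberg adjustment over all features tested, after tests on simulated data. Tables were made with Python 3.11.15, pandas 2.3.3 and scipy 1.17.1.

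The members, gene lists and tests were chosen with earlier results of these data known. Genes named with all values were, by rule, the 6 with the highest median percentile, those called in 1 to 6 libraries, for each direction the 2 promoters and 2 regions of smallest unadjusted p and the 3 spans with most peaks; Lmod2, Mb, Xirp1, Neb, Myoz1 and Tpm1 regions, the offset peaks and the printed sequences were picked after their values were seen. Alternatives were rank by fold enrichment, a -log10 q of at least 5, equal numbers of peaks (69302), other windows and starts, depth as a covariate, a replicate block, limma with trend and robust settings, and leaving out each library.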

Additional observations from a re-analysis of the deposited data

Results flagged for a closer look

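In the 4 Nedd4L-cKO libraries, 3 of 27 sets of values tested by Dixon's ratio of gap to range held a library that stood apart; chance flags about 1 in 20 such sets, and the 3 Nedd4L-WT libraries are too few for the test. At the Acta1 promoter the second Nedd4L-cKO library stood at percentile 55.0 and the others at 68.0 to 69.0 (ratio 0.929). At Tpm2 the first library stood at 85.7 and the others at 84.9 to 85.0 (ratio 0.906), a spread of under 1 percentile. At Tnni2 the third library stood at 63.6 and the others at 68.2 to 69.1 (ratio 0.843).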

How the results depend on the processing

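No promoter or region of the 40 genes was called in any of the fits run. Over all features, calls stayed at 0 in 16 of 18 alternatives for promoters and in 13 of 14 for regions, with 361 to 655 promoters and 555 to 2533 regions at an unadjusted p under 0.05. The exceptions were 1 promoter where a peak in at least 1 library sufficed (Gm5111, named after its value was seen), 12 regions where a peak in at least 4 libraries sufficed, both with missing peaks set to the lowest rank, and 1 promoter (Cfap73, likewise) without Nedd4L-cKO replicate 2 (range 0 to 1 for promoters and 0 to 0 for regions when leaving out each library); the cause was not tested. The mean share of the 40 promoters with a peak, 68.2%, moved to 43.6% with a -log10 q of at least 5, 53.2% within 500 bp, 77.1% within 2.5 kb, 40.4% where the peak covers the start and 59.3% where peaks over a start of another gene were left out, the last 2 being alternatives chosen after seeing the data. Leaving out each library gave 67.1% to 69.2%, and the difference between Nedd4L-cKO and Nedd4L-WT ran from -3.12 to 1.88 percentage points; the lower end is the value without Nedd4L-WT replicate 3, within lane 1. Peaks inside the spans averaged 91.9 per library, 42.6 with a -log10 q of at least 5 and 90.2 to 93 without each library. Counts of promoters and regions called in one genotype alone stayed at 0. The Tcap difference reversed by rank of fold (-0.023) and without Nedd4L-WT replicate 2 (-0.054, range -0.054 to 0.302 over the libraries left out), and that of Actn3 reversed by rank of fold (0.093). Replicate numbers are only numbers in the titles: deviations of same-numbered libraries correlated at -0.21, 0.05 and -0.13, and among the Nedd4L-WT libraries only replicate 2 correlated best with its own number. With the replicate block, 0 promoters and 0 regions were called, with 380 and 1454 at an unadjusted p under 0.05.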

Other observations

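Among 50 further sarcomere and contraction genes, listed with earlier results known, 32 had a promoter peak in all 7 libraries (64%, beside 63.4% of all promoters), 10 in some and 8 in none. The start was covered in all 7 for 26 of the 32 (81.2%, beside 91.4% of all promoters and 52.4% of the 40 genes). None of the 32 passed an adjusted p of 0.05 in limma, and none had an unadjusted p under 0.05. The highest were filamin C (Flnc), which crosslinks actin at the Z-disc, at percentiles 98.0 to 99.9, the embryonic and atrial light chain Myl4 at 95.6 to 98.2, the PDZ-LIM proteins Pdlim5 (96.1 to 98.0) and Pdlim7 (94.2 to 97.6), the calcium pump Atp2a2 (93.8 to 97.8) and the muscle enolase Eno3 (94.2 to 97.0), whose start was covered in no library. Without a promoter peak in any library were Tnni3, Mybpc3, Csrp3, Myoz3, Unc45b, Trim54, Trim63 and Ckmt2. Sarcolipin (Sln), an inhibitor of the calcium pump in muscle, was called in 2 libraries, at percentiles 13.2 and 23.6.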
